A study of Mus musculus with 2 samples.

Results

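The miR-297, miR-466, miR-467 and miR-669 families are microRNAs (miRNAs) that mouse carries as a dense array of hairpins in an intron of *Sfmbt2*. They were examined in small RNA libraries from the jejunal tunica muscularis, the smooth muscle wall of the small intestine. Members were chosen by name alone: every mature entry named miR-297, miR-466, miR-467 or miR-669 with a letter or a hyphen after it. This gave 44 of the 1147 listed entries, with 4 of miR-297, 17 of miR-466, 8 of miR-467 and 15 of miR-669. Both groups were mice on a C57BL/6 background at an age of 15 days, carrying 1 copy of a transgene (smMHC Cre-eGFP/+) that drives *Cre* and *eGFP* from the *Myh11* promoter, which is active in smooth muscle. In *Dnmt1*-KO mice *Cre* deletes the floxed *Dnmt1* alleles, so the deletion is restricted to smooth muscle and other cells of the wall keep the gene, whereas *Dnmt1*-WT mice carry the transgene with intact *Dnmt1*. There was 1 library per genotype, made from males and females of each genotype by the study's methods, which do not say whether their small RNA was pooled. The labels name the floxed strain for both samples and the mutant genotype in a note on the WT sample, so groups followed the genotype field, and small RNA does not measure the *Dnmt1* transcript that would check it.

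DNMT1 copies CpG methylation onto newly made DNA strands and is needed to keep the methylation marks of imprinted genes. *Sfmbt2* encodes a Polycomb-group protein and is imprinted in the mouse, with expression from the paternal allele in extraembryonic tissue. Its intronic miRNAs are processed from hairpins in the host transcript, each hairpin giving a 5p product from its first arm and a 3p product from its last. Many copies differ by only a few bases, and a short read can match several of them. A miRNA recognises its targets mainly through the seed, bases 2 to 8 counted from the 5′ end.

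The label was checked against the GENCODE annotation of GRCm38. *Sfmbt2* lies on chromosome 2 (10370510 to 10595253, plus strand), and 82 hairpins of the 4 families were annotated, of which 72 lay inside it. All 72 were on the plus strand, in sense with *Sfmbt2*, and sat within a single intron (10461473 to 10523944, intron 10 of transcript Sfmbt2-201), where they spanned 51.6 kb. The other 10 lay on other chromosomes. By name, 36 members had every hairpin inside *Sfmbt2*, 3 (miR-297a-5p, miR-466f-5p and miR-466f-3p) had hairpins both inside and elsewhere, and 5 came only from elsewhere. These 5 were miR-466i-5p, miR-466i-3p, miR-466j, miR-466q and miR-467f, so the families are wider than the *Sfmbt2* intron.

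The mature sequences of 4 of the 5 members from elsewhere are shown because they make plain how repetitive these miRNAs are, with the seed in capitals (RefSeq, GRCm38.p6).
miR-466i-3p: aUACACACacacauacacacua
miR-466q: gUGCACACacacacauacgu
miR-467f: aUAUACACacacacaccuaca
miR-466j: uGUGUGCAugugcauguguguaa
miR-466i-3p comes from chr13:17747552-17747573 (plus strand, antisense to an intron of *Cdk13*) and miR-466q from chr3:28419988-28420007 (plus strand, in an intron of *Tnik*, in sense). miR-467f comes from chr11:69635419-69635439 (minus strand, antisense to an intron of *Fxr2*) and miR-466j from chr10:60960802-60960824 (plus strand, in no other annotated gene). The first 3 of these miRNAs are built around a CA repeat and hold ACACAC, which was present in 11 of 1679 mature miRNAs of the RefSeq table (0.655%, read on the miRNA strand). miR-466j holds the complementary repeat GUGUGU, present in 17 of them (1.01%). The 4 seeds differed from each other and none was shared with another mature sequence of that table. Only these 4 of the 44 members were found in it. Members from the *Sfmbt2* intron, which may hold the same seeds or repeats, were therefore not compared or counted. Long runs, seed bases included, were shared among the first 3 but not with miR-466j (at most 5 bases): miR-466i-3p and miR-466q shared a run of 14 bases, and miR-466i-3p and miR-467f a run of 13.

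Such overlap could bear on the values, although it was not measured for the other members, whose sequences were not found. Most deposited values of ordinary miRNAs were whole multiples of a step close to 1 in each library, the value of 1 read, whereas a read divided between several miRNAs would give a fraction of it. How the authors treated such reads was not given in the sources used here. Of the 44 members, 27 (61.4%) held a fractional value in at least 1 library, in contrast to 41 of the 749 other mature entries no more abundant than the top member (5.47%). Where the mean of both libraries was at least 10, 11 of 15 members were fractional (73.3%), compared to 18 of 232 other mature entries in the same range of means (7.76%). Single members are therefore uncertain where a near copy could take part of their reads, whereas a division within a family leaves its sum as it is. A division between families, or with other miRNAs, would change a family sum. Across families, miR-466i-3p and miR-467f shared a run of 13 bases.

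These miRNAs were scarce in the tunica muscularis. Summed over all 44 members, the deposited value was 744.6 in *Dnmt1*-WT and 661.2 in *Dnmt1*-KO, from libraries that totalled 5741906 and 4754677. The share was 0.013% in WT (95% Wilson interval 0.0121 to 0.0139%), compared to 0.0139% in KO (0.0129 to 0.015%). The most abundant member, miR-669a-5p, ranked 288 among 1080 mature entries by its mean. Of the 44, 38 were above 0 in WT, 37 in KO and 31 in both. No more than 3 reads were present in either library for 19 members, and the 15 whose mean reached 10 held 90.8% of the summed value in WT and 86.5% in KO.

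**Figure D1:**
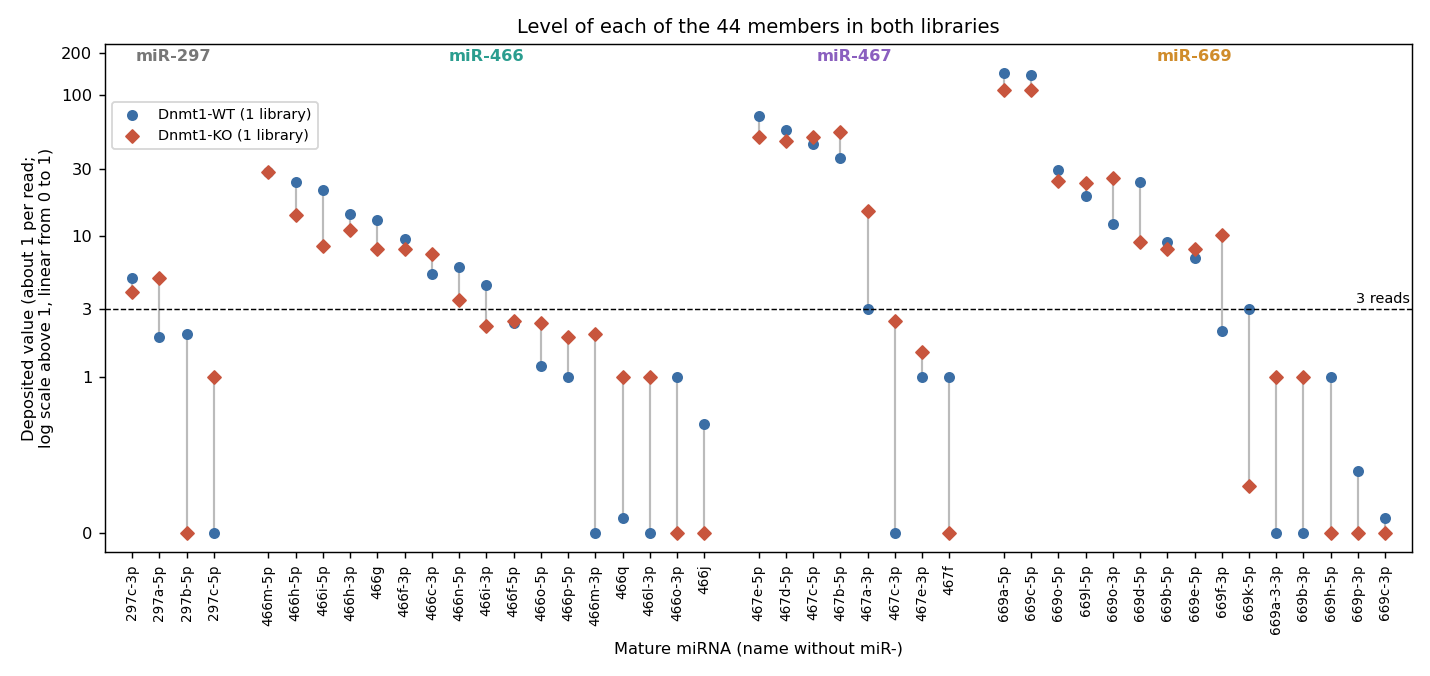
Deposited value of each of the 44 members (vertical axis, logarithmic above 1 and linear from 0 to 1) in the *Dnmt1*-WT library (circles) and the *Dnmt1*-KO library (diamonds), grouped by family and ordered by mean. The miR-669 pair miR-669a-5p and miR-669c-5p stood above 100 in both libraries, 4 miR-467 5p products followed, and 19 members stayed at or below the dashed line at 3 reads in both.

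The question was whether these miRNAs differed between genotypes. The summed KO/WT ratio was 0.888, with a 95% interval of 0.798 to 0.987 that covers counting error only, since a single library per genotype gives no spread between animals and allows no test. The direction rested on the scale. The KO library was 0.828 times as large as the WT library, and when both totals were set equal the ratio of the 44 members became 1.07 (0.964 to 1.19). The members thus held nearly the same share of each library.

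By family, miR-669 made up 52.3% of the members' value in WT and 49.7% in KO, with a sum of 389.3 in WT and 328.8 in KO and a KO/WT ratio of 0.845 (0.727 to 0.981). At equal totals it was 1.02. The miR-467 family went from 213.6 to 220.5, a ratio of 1.03 (0.851 to 1.25), or 1.25 (1.03 to 1.51) with equal totals. Over its 3 members with whole reads in both libraries (miR-467e-5p, miR-467a-3p and miR-467f) the miR-467 ratio turned to 0.863 (0.61 to 1.22). The miR-466 family had sums of 132.8 and 101.9 and a ratio of 0.767 (0.587 to 1), and 0.927 with equal totals. Its interval reached 1, and so did that of the small miR-297 family, at 8.9 in WT and 10 in KO (ratio 1.12, 0.409 to 3.14). Without miR-297a-5p, which has a fractional value and a hairpin outside *Sfmbt2*, the miR-297 ratio turned to 0.714 (0.179 to 2.62). No family sum differed by as much as 2-fold on either scale.

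**Figure D2:**
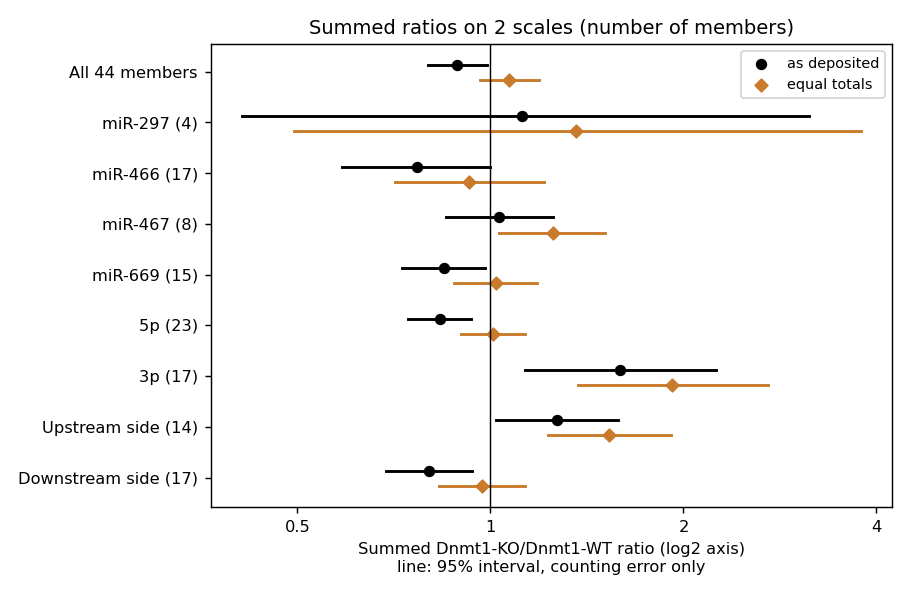
Summed *Dnmt1*-KO/*Dnmt1*-WT ratio (horizontal log2 axis) of all members, each family, each arm and each side of the *Sfmbt2* array, as deposited (circles) and with equal library totals (diamonds). Lines are 95% intervals of counting error, and the 3p sum stands to the right of 1 and of the 5p sum.

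In the miR-669 family, miR-669a-5p, which has 12 annotated hairpins in the intron, stood at 142.9 in WT and 108.3 in KO (ratio 0.758, 0.585 to 0.98). miR-669c-5p, from a single hairpin (chromosome 2, 10509296 to 10509404), stood at 139.4 and 109.0 (ratio 0.782, 0.603 to 1.01). This pair held most of the family, and without it the family ratio was 1.04 (0.792 to 1.37). miR-669d-5p was lower in KO, with 24.1 in WT and 9.0 in KO (ratio 0.373, 0.153 to 0.831). miR-669l-5p, with 19.1 and 23.9, and miR-669o-5p, with 29.1 and 24.3, had intervals that included 1. Among members whose mean reached 10, miR-669o-3p alone was at least 2-fold higher in KO, with 12.1 in WT and 25.8 in KO (ratio 2.13, 1.04 to 4.63).

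The miR-467 family was carried by 4 5p products of similar level. Those of miR-467e and miR-467d were lower in KO, at 71.2 in WT and 49.9 in KO (ratio 0.701, 0.478 to 1.02) and at 56.7 and 46.9 (0.827, 0.55 to 1.24). Those of miR-467c and miR-467b were higher, at 45.2 and 49.9 (1.1, 0.723 to 1.69) and at 35.5 and 54.8 (1.54, 0.994 to 2.43). All 4 intervals included 1 on the deposited scale, whereas at equal totals miR-467b-5p stood at 1.86 (1.2 to 2.93) and the other 3 intervals still included 1. A scarcer product of the family, miR-467a-3p, which has 10 hairpins in the intron, had 3.0 in WT and 15.0 in KO (ratio 5, 1.41 to 27). This miRNA, outside the rule for named members, was picked with its values known.

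Within the miR-466 family, miR-466m-5p was nearly equal, at 28.5 in WT and 28.3 in KO. The others whose mean reached 10 were lower in KO on the deposited scale. miR-466h-5p had 24.2 and 14.1 (ratio 0.583, 0.28 to 1.17), miR-466h-3p 14.2 and 11 (0.775, 0.319 to 1.83) and miR-466g 13 and 8 (0.615, 0.221 to 1.6). miR-466i-5p, whose hairpin lies in the *Cdk13* locus and not in *Sfmbt2*, had 21.1 and 8.5 (0.403, 0.159 to 0.93). The 5 members from elsewhere had a summed ratio of 0.431 (0.198 to 0.88) as deposited, or 0.52 (0.239 to 1.06) with equal totals. For the 36 members with every hairpin inside *Sfmbt2* it was 0.901 (0.808 to 1), or 1.09 (0.976 to 1.21) with equal totals. miR-466i-5p and miR-466i-3p (4.5 in WT, 2.3 in KO) supplied most of the sum from elsewhere.

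**Figure D3:**
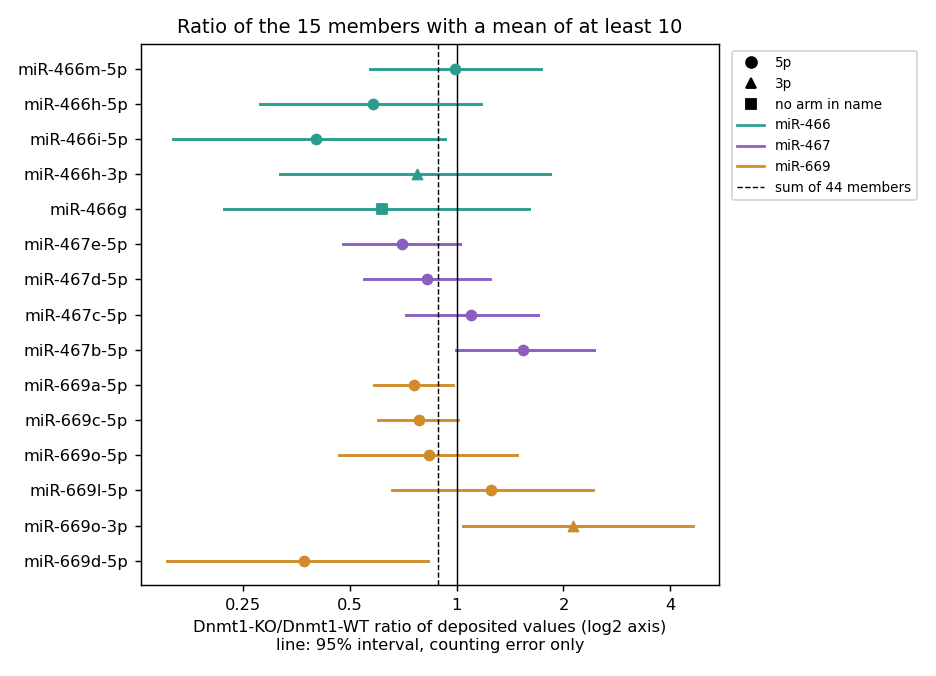
*Dnmt1*-KO/*Dnmt1*-WT ratio of the 15 members whose mean reached 10 (horizontal log2 axis, lines are 95% intervals of counting error), coloured by family, with the marker giving the arm. As deposited, the intervals of 11 of the 15 include 1 (solid line), and the dashed line is the summed ratio of 0.888.

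At least 2-fold higher values in KO were seen for 12 of 44 members (27.3%), compared to 26.1% of all 1080 mature entries. At least 2-fold lower values were seen for 10 (22.7%), compared to 22% of all mature entries. Both shares were near the background, and 8 of the 12 and 8 of the 10 stayed at or under 3 reads in each library. At a mean of at least 10, 1 of 15 members was at least 2-fold higher (background 11.4%) and 2 were at least 2-fold lower, miR-669d-5p and miR-466i-5p (background 8.99%). As deposited, the intervals of miR-669a-5p, miR-669d-5p, miR-466i-5p and miR-669o-3p excluded 1. At equal totals only those of miR-669o-3p and miR-467b-5p did, and 13 of 15 included 1.

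The median log2((KO + 1)/(WT + 1)) of these 15 members was -0.34, with 4 ratios above 1 and 11 below (6 and 9 at equal totals). Over all 534 mature entries with such a mean this median was 0.06. Over the 232 other entries in the members' range of means (10 to 125.6) it was 0.20, with 139 higher and 90 lower as deposited. Equal totals raise every log2 ratio alike, by 0.27 before the pseudocount, and so leave the distance between these medians nearly as it is. The members also lay closer together than other entries of like level, with an SD of the log2 ratio of 0.63, compared to 1.48. All of these members but miR-466i-5p come from the *Sfmbt2* intron, and they may share reads. They cannot be taken as independent, and this is a description of 2 libraries.

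Markers of smooth muscle and of other cell types, not all of them part of the muscle wall, also differed between the libraries. All 7 smooth muscle products on the marker list, such as miR-143-3p and miR-145a-5p, were lower in KO, with ratios from 0.259 to 0.694 and a summed value of 2217692 in WT and 1446666 in KO. All 5 leukocyte products were higher, with ratios from 1.2 to 5.01 and sums of 5624 and 9549, and so were all 3 red cell products, with sums of 12735 and 47198. Of the 8 epithelial products 4 were higher and 4 lower (sums 14503 and 18129), but all 8 were higher at equal totals, with ratios from 1.07 to 2.16. The counts of the other lists were the same on both scales. Of the 4 neural products 2 were higher (6565 and 5636), and both endothelial products were higher (10080 and 14282). No listed marker was at 0 in either library. Fewer cells of a type and less RNA per cell cannot be told apart in such bulk samples, and the part that cell makeup plays in the members' values was not tested.

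The arms of the hairpins differed more than the families did. The 23 5p products summed to 671.5 in WT and 559.5 in KO, a ratio of 0.833 (0.743 to 0.934). The 17 3p products summed to 58.3 and 92.7, a ratio of 1.59 (1.13 to 2.25), and their part of the members' value went from 7.8% to 14%. The intervals of the 2 arms did not overlap. This comparison of arms was not planned, and the same sums over the other miRNAs of the libraries were not computed. Equal totals multiply both alike, to 1.01 (0.898 to 1.13) for 5p and 1.92 (1.37 to 2.71) for 3p, and so add nothing to this. The 3p excess lay in the miR-467 family (4 in WT, 19 in KO) and the miR-669 family (14.7 and 38), whereas miR-466 3p products summed to 34.6 and 31.7. It rested on few reads. Without the most abundant 3p member, miR-669o-3p, the ratio was 1.45 (0.981 to 2.16), and without the 2 most abundant it was 1.75 (1.11 to 2.79). Over the 7 3p members with whole reads in both libraries it was 2.67 (1.2 to 6.52), from sums of 9 in WT and 24 in KO. Most of that rise was miR-467a-3p alone, at 3.0 in WT and 15.0 in KO. Leaving out miR-467a-3p and miR-669o-3p, which were picked for being higher in KO so that the ratio had to come down, gave 1.2 (0.787 to 1.84).

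A share within a hairpin does not depend on the scaling. Of 10 pairs that come from 1 hairpin each, 7 had a higher 3p part in KO and 3 a lower one (miR-297c, miR-466o and miR-669c). In 6 of the 10 an arm was listed at 0 in a library, which fixes the direction of the change. The same count over other hairpins of the libraries was not made, so whether it is particular to these families was not tested. The 4 pairs with both arms above 0 in both libraries were among the 7, by a wide margin only for miR-669o. For miR-669o the 3p product took 29.4% of the pair in WT and 51.5% in KO, with its 5p product slightly lower in KO on the deposited scale. For miR-466h the 3p part was 37% and 43.8%, and for miR-466i it was 17.6% and 21.3%, with both arms lower in KO. miR-467e gave mostly 5p product, with a 3p part of 1.4% and 2.9%, from 3p values of 1.0 in WT and 1.5 in KO that lie under 3 reads. miR-466f, a name that pools 4 hairpins, gave mostly 3p product, with 79.8% and 76.2%. The 3p product of miR-669f, at 2.1 in WT and 10.2 in KO (ratio 4.86, 1.07 to 42.5, singled out afterwards), had no 5p entry to set beside it.

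Position in the intron was compared for the 31 members that match a single hairpin inside *Sfmbt2*. Their hairpins lay from 96.2 to 110.7 kb and from 135.2 to 147.6 kb past the start of the gene, on either side of a stretch that held 27 other annotated hairpins, most of them copies of miR-466b, miR-467a and miR-669a. The split at this widest gap was chosen after the values were seen, and no test was made. On the upstream side, 14 members summed to 151.6 in WT and 192.3 in KO, a ratio of 1.27 (1.02 to 1.58). On the downstream side, 17 members summed to 376.0 and 301.9, a ratio of 0.803 (0.688 to 0.937). Equal totals moved both in parallel, to 1.53 (1.23 to 1.91) and 0.97 (0.831 to 1.13).

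The same order held among 5p products alone, with 1.18 (0.945 to 1.48) upstream and 0.758 (0.641 to 0.896) downstream, and these intervals did not overlap. Using only members with whole reads in both libraries, the ratios were 1.22 (0.765 to 1.94) and 0.693 (0.496 to 0.964), with overlapping intervals. Leaving out the 2 most abundant members of each side gave 1.24 (0.893 to 1.71) and 0.865 (0.686 to 1.09), which also overlap. Because near copies exist across the array, a read assigned to one side may come from another hairpin, and how much this adds was not tested.

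**Figure D4:**
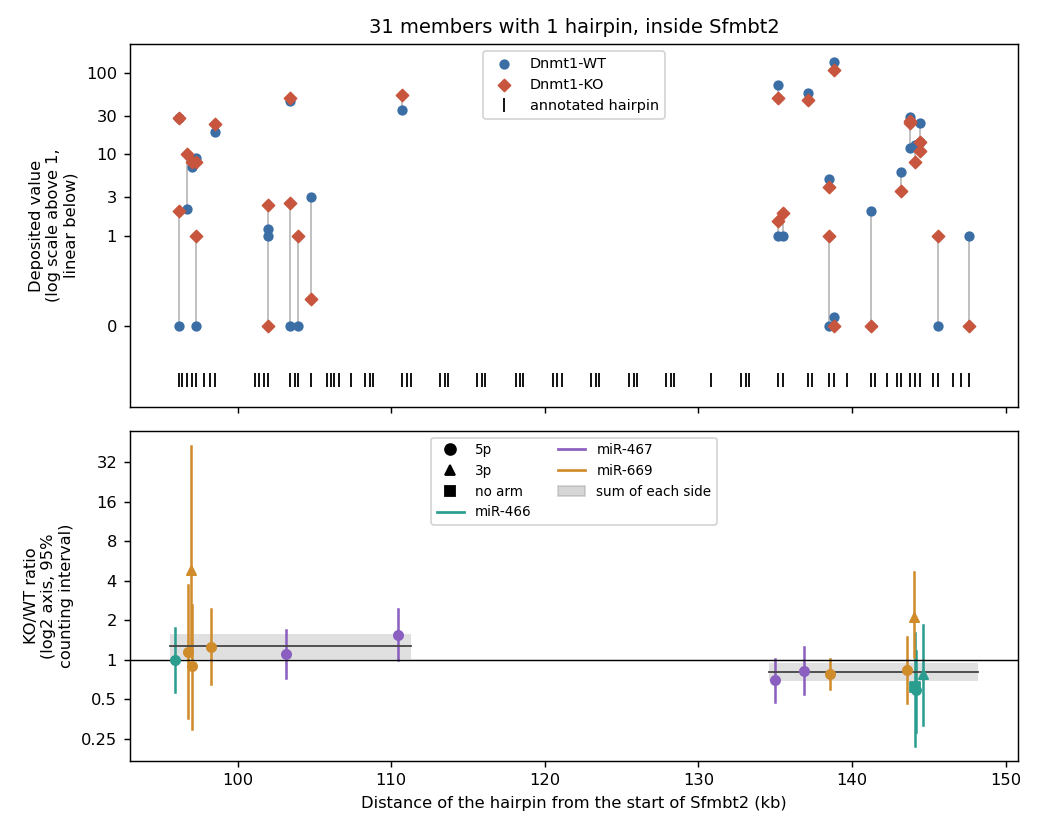
Members with 1 hairpin inside *Sfmbt2*, by the distance of the hairpin from the start of the gene (horizontal axis, kb). The upper panel gives the deposited value in *Dnmt1*-WT (circles) and *Dnmt1*-KO (diamonds) with every annotated hairpin as a tick, and the lower panel gives the KO/WT ratio (log2 axis) with its 95% counting interval for members with a mean of at least 5, 5p and 3p products of a hairpin drawn side by side. Grey bands are the summed ratio of each side with its interval, above 1 upstream and below 1 downstream.

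Above 0 only in WT were 7 of 44 members (15.9%), compared to 14% of all mature entries, and only in KO 6 (13.6%), compared to 15.4%. Both shares were near the background. None of these members exceeded 3 reads, the most that a value of 0 leaves room for, so their absence from a genotype was not detectable at this depth. The 3 with a value of at least 2 were miR-297b-5p (2.0 in WT), miR-466m-3p (2.0 in KO) and miR-467c-3p (2.5 in KO). In the miR-297 family the highest values were those of miR-297c-3p, at 5.0 in WT and 4.0 in KO, and miR-297a-5p, at 1.9 and 5.0. Of the 82 annotated hairpins, 20 had no mature entry of their own name among those analysed here, including all 8 copies of miR-466b.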

How the data were processed

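Small RNA of the jejunal tunica muscularis (*Dnmt1*-WT and *Dnmt1*-KO, 1 library each) was made into TruSeq Small RNA libraries. The submitters' processing notes name Bowtie and mm10. The database release, the treatment of reads matching several miRNAs and the scaling were not given in the sources used here. The deposited values are a signal that steps like read counts times a factor per library. The step that made most values from 20 to 300 whole (within 0.06 of a read) was 1.00284 for WT (88.6% of 229 values) and 0.99718 for KO (91.1% of 248), which gave 5725617 and 4768099 implied reads. A column with the authors' own fold changes was not used.

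Ratios are KO/WT of deposited values. Their 95% intervals are Clopper-Pearson intervals for the part of the reads found in KO, with fractional reads entered as they are. Library shares have Wilson intervals. The kit adds no molecular identifiers, and reads from 1 molecule can repeat. Intervals and the floor of 3 reads therefore cover counting error only. With 1 library per group no p-value was computed. Ratios counted as 2-fold used no pseudocount, and medians used a pseudocount of 1. Hairpins were matched by name to GENCODE M21 and RefSeq synonyms, and mature sequences were found for 4 members. Scripts used Python 3.11.15, pandas 2.3.3 and SciPy 1.17.1. The interval and step calculations were tested on simulated data. For the intervals these were whole counts with means of at least 10, so fractional reads and lower means were not covered. Named miRNAs were members with a mean of at least 10, the highest member of each family, members listed at 0 in 1 library with at least 2 in the other, and arm pairs above 0 in both libraries with a summed mean of at least 10. The members, marker lists and rules were chosen with earlier results of these data known.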

Additional observations from a re-analysis of the deposited data

How the results depend on the processing

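Scaling decided the direction of the summed ratio. For all members it went from 0.888 to 1.07 with equal totals, 1 with equal totals without miR-143-3p and 0.906 when centred on the median ratio of abundant mature entries. For miR-669 it went from 0.845 to 1.02 with equal totals, and to 1.04 without miR-669a-5p and miR-669c-5p, an alternative chosen after seeing the data, as were those for the arms and sides of the array. The counts of 12 higher and 10 lower members became 3 and 2 at a mean of at least 5, 1 and 2 at a mean of at least 10, and 0 and 0 with a pseudocount of 10, which test fewer members or shrink low ones by construction. The median log2 ratio of -0.34 became -0.07 with equal totals, -0.17 with equal totals without miR-143-3p, -0.23 with a pseudocount of 10, -0.22 at a mean of at least 5 and -0.25 at a mean of at least 20. Adding the 4 hairpin-named entries left the sum at 0.887. Sums per shared seed were not run, since sequences were matched for 4 members only. Low depth limits every single member, and no value speaks of the spread between animals. No paired analysis was possible because each genotype has 1 library.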

Other observations

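The table also held 4 entries of these families under the name of a hairpin precursor, which were kept out of the members. mir-297a-2 was listed at 0 in WT and 1 in KO, mir-669j at 0 and 0.1, mir-466f-4 at 0.5 and 0, and mir-467g at 1.5 and 0. All 4 were under 3 reads in both libraries.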
